A study of Mus musculus and Ochotona curzoniae and Rattus norvegicus with 18 samples.

Results

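The genes described here encode the proteins of the mitochondrial ribosome, and their mRNA was compared between cultured fibroblasts of the Tibetan pika (Ochotona curzoniae, a lagomorph of the high plateau) and of the C57BL/6J mouse. A gene was a member if its symbol starts with MRPL or MRPS and is found once in the pika tables and once, in capitals, among the symbols of the mouse identifiers. This gave 76 genes, 47 named MRPL and 29 named MRPS, of the 14418 genes that could be joined between the species by symbol. All 76 rows of the pika tables that start with these letters were joined, and 7 of the 83 mouse symbols had no pika row. All 76 members entered the test, 74 with a mean of at least 1 FPKM in both species. MRPL30, listed at 0 in pika, and MRPS35, under 1 FPKM in mouse, entered only through the species in which each was high.

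The series was set up to follow core clock gene mRNA across species and to find the binding sites of Epas1, a hypoxia-inducible transcription factor. Its RNA-seq part used here held 3 pika and 3 mouse libraries. The cells of both species were labelled as epidermis fibroblasts, were grown untreated in DMEM with fetal bovine serum and antibiotics, and were lysed at the same high confluency. The labels give no age, sex, passage or animal number. They do not say whether the 3 libraries per species are separate animals or cultures, so p-values reflect library-to-library spread alone, which may be technical.

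The mitochondrial ribosome is built in the matrix from ribosomal RNAs that mitochondrial DNA encodes and from proteins that nuclear genes encode and that are imported. It translates the few mRNAs of mitochondrial DNA, which encode core subunits of the respiratory chain and of ATP synthase. Its large subunit (MRPL proteins) joins amino acids, and its small subunit (MRPS proteins) holds the mRNA and reads the codons. Many of these proteins have bacterial counterparts, and others are found only in mitochondria. Names do not always give the place: MRPS30 and MRPS18A sit in the large subunit, and MRPS36 is also known as a part of the 2-oxoglutarate dehydrogenase complex.

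The library totals behind the deposited FPKM (fragments relative to gene model length and library total) were 7703576 to 8481030 reads in pika and 3663102 to 5758950 in mouse. The reads of a member, worked out from the FPKM values and summed over 3 libraries, are minimums. They ranged from 70 to 1782 in pika, MRPL30 aside, and from 38 to 580 in mouse. Mouse values thus carry more counting error. Fold changes without gene length rest on these reads. The joined genes held about 87.1% of the FPKM in pika and 37.0% to 38.3% in mouse, and each library was therefore rescaled so that its joined genes sum to 1000000. Levels below are in this rescaled FPKM. Each fold change is that of pika over mouse, as a difference of log2(rescaled FPKM + 1), tested by limma-trend (a linear model that shares variance between genes) with Benjamini-Hochberg adjustment over 10348 genes. Calls required an adjusted p under 0.05 together with a log2 change of at least 1 in either direction. Species, genome and gene annotation cannot be told apart in this design, and in bulk RNA neither can fewer cells of a type and less RNA per cell. Of 11 fibroblast markers all were above 0 in both species, with summed levels of 13064 to 13486 in pika and 14015 to 14473 in mouse, carried mostly by COL1A1 and VIM. Single markers differed, with PDGFRA at a mean of 3.47 in pika and 65.1 in mouse and FAP at 41.7 in pika and 1.23 in mouse. In all, 2 (18.2%, all genes 28.7%) were called higher and 3 (27.3%, all genes 23.5%) lower, and FAP entered the test only through its pika level. Keratinocyte markers were near 0, at most 1.30 in pika and 6.48 in mouse.

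Promoter sequence of the members is shown because genes of the mitochondrial ribosome are textbook targets of ETS-family factors (GABPA), NRF1 and YY1. Of the 76 members, 67 had an entry in a RefSeq table of mouse promoters (GRCm38.p6, 250 bases before to 50 after each gene's start), and no pika promoter was used here. The stretches below run 5′ to 3′ on the gene's strand over the 150 bases that end at its start, and capitals mark motif matches on either strand. MRPL17 and MRPS5 were among the members highest in pika relative to mouse, and MRPL34 and MRPL39 among those lowest.
Mrpl17, chr7:105811088-105811237, minus strand: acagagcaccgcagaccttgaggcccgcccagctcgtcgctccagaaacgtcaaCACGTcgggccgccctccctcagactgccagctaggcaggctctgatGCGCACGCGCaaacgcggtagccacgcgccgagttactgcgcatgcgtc
Mrps5, chr2:127587276-127587425, plus strand: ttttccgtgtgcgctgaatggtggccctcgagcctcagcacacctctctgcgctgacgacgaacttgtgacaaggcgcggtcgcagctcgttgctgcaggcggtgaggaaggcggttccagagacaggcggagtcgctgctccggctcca
Mrpl34, chr8:71464776-71464925, plus strand: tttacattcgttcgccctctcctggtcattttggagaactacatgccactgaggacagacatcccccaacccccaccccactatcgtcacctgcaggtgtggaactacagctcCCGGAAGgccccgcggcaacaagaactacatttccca
Mrpl39, chr16:84735245-84735394, minus strand: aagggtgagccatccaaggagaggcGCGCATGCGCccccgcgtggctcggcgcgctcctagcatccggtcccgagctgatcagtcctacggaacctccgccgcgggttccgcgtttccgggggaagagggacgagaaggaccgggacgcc
The NRF1 pattern, GCGCA and GCGC with any 1 base between them, stood in both Mrpl17, called higher, and Mrpl39, called lower. The ETS core CCGGAAG stood in Mrpl34, and the stretch of Mrps5 held none of the motifs searched.

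Over the 67 windows of 300 bases, searched on both strands, the ETS core CCGGAAG was found in 24, or 35.8%, against 9.12% of all 27025 promoters in the table. The NRF1 pattern was in 19.4% of the members' windows, against 4.78% of all. The YY1 pattern AAGATGGCG was in 10.4%, against 1.49% of all. The HIF site ACGTG, printed on its other strand as CACGT in Mrpl17, was in 20.9% of the members' windows, against 19.7% of all promoters, and the E-box CACGTG, which contains ACGTG, in 5.97%, against 7.24% of all. Members called higher and members called lower both held the motifs. The ETS core was in 30% of the 30 windows of members called higher and in 44.4% of the 9 windows of members called lower.

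One pair of members lies head to head in mouse: Mrpl46 and Mrps11 are transcribed away from each other on chromosome 7 with 41 bases between their starts. The stretch is printed because a large and a small subunit gene share it.
Mrps11 strand, chr7:78783090-78783130: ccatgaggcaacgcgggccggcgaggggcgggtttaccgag
MRPS11 was at 68.1, 64.1 and 56.5 rescaled FPKM in pika, against 30.9, 29.3 and 25.5 in mouse, and was called higher (log2 fold change 1.11). MRPL46 was at 59.3, 46.4 and 58.2 in pika, against 52.0, 37.9 and 31.3 in mouse. Its libraries overlapped, and its log2 fold change of 0.45 was not called.

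The members called higher in pika outnumbered those called lower, in both subunits. Of the 76 members, 36 were called higher and 9 lower, 25 had an adjusted p under 0.05 with a log2 fold change inside the minimum, and 6 had an adjusted p above 0.05 (limma-trend). Of all 10348 genes tested, 28.7% were called higher and 23.5% lower, 52.2% in all. The members' shares were 47.4% and 11.8%. Without MRPL30, whose call rests on its listing at 0, 8 were lower. The members' median log2 fold change was 0.89, with or without MRPL30, and that of all genes tested was 0.21. Without normalisation for gene length the picture differed: 18 members (23.7%) were called higher and 8 lower, where 25.7% of all genes were called higher and 27.2% lower (52.9% in either direction). The split also moved on FPKM without rescaling, with 57 members higher and 1 lower, where 58.3% of all genes were called higher and 10.7% lower (69% in either direction) and the median of all genes was 1.29.

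**Figure D1:**
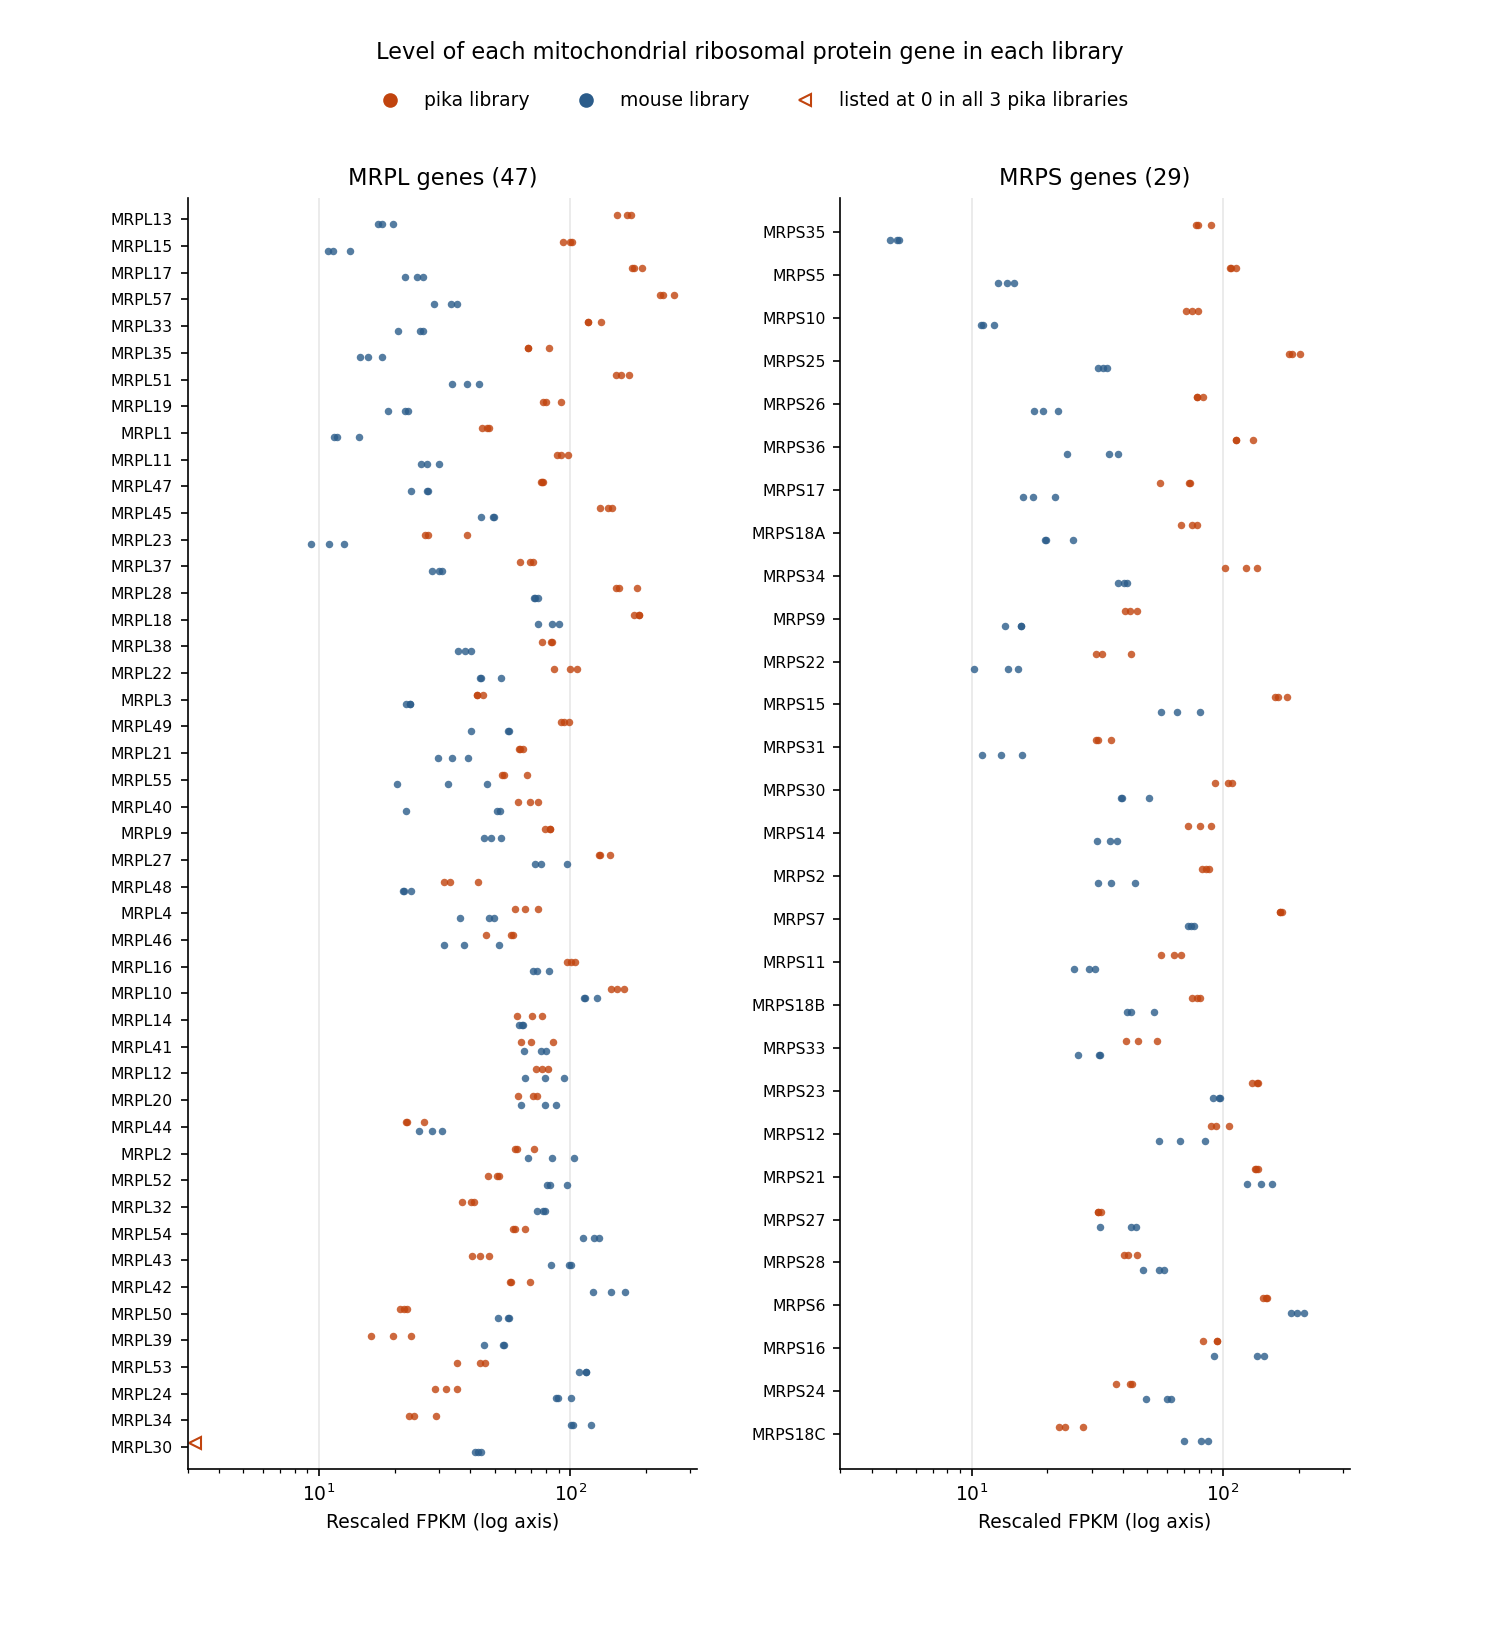
Level of each of the 76 genes in each library, in rescaled FPKM on a log axis, with MRPL genes on the left and MRPS genes on the right, ordered by fold change. Each point is a library (3 pika, 3 mouse), and the open triangle marks MRPL30, listed at 0 in all 3 pika libraries. In 51 genes all pika points lie above all mouse points, in 15 below, and in 10 the species overlap.

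All 3 pika libraries lay above all 3 mouse libraries in 51 members, 29 MRPL and 22 MRPS, and below them in 15, 11 MRPL and 4 MRPS. The other 10 overlapped. Over all genes tested, pika lay wholly above mouse in 49.6% and wholly below in 39.4%. The fold change was above 0 in 53 of 76 members and in 55.6% of all genes tested.

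Small subunit genes were called higher in 18 of 29 cases (62.1%, all genes 28.7%) and lower in 1 (all genes 23.5%), and their median log2 fold change was 1.18. Without gene length 10 (34.5%, all genes 25.7%) were higher and 1 lower (all genes 27.2%). MRPS35, a small subunit protein with no bacterial counterpart (mouse chromosome 6, 147042728 to 147070906, GRCm38.p6), was at 78.4, 79.2 and 90.0 rescaled FPKM in pika, against 4.75, 5.03 and 5.13 in mouse. This was the largest upward difference among the members, with a log2 fold change of 3.80 (SE 0.10). It is given as a description with no p, since MRPS35 passed the filter on low values through its pika level alone. MRPS35 had the lowest mouse level of all members, and its gene model was at least 975 bases long in pika, against 8631 in mouse. Without gene length its log2 fold change was 1.86. MRPS5, the counterpart of a bacterial protein at the site where mRNA enters the small subunit, was at 107, 112 and 108 in pika, against 14.7, 13.9 and 12.8 in mouse. The groups were far apart, with a log2 fold change of 2.90 (SE 0.08, limma-trend adjusted p = 6.8e-10), and of 1.80 without gene length.

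MRPS10, MRPS25, MRPS26 and MRPS36 completed the 6 small subunit genes with the largest fold change. MRPS10, with a bacterial counterpart in the head of the subunit, was at 71.3, 75.1 and 79.4 rescaled FPKM in pika, against 12.2, 10.9 and 11.1 in mouse. Every pika library stood well above every mouse library (log2 fold change 2.62, SE 0.08, limma-trend adjusted p = 2.6e-09), and the value without gene length was 0.55. MRPS25, found only in mitochondrial ribosomes, was at 182, 203 and 188 in pika, against 31.7, 33.2 and 34.5 in mouse. It was the second highest member in pika, and its log2 fold change of 2.49 (SE 0.06, limma-trend adjusted p = 4.5e-10) became 0.16 without gene length. MRPS26, also without a bacterial counterpart, was at 78.8, 78.7 and 83.4 in pika, against 22.0, 19.3 and 17.8 in mouse. On the log2 scale the fold change was 1.98 (SE 0.09, limma-trend adjusted p = 2.2e-08), and 0.28 without gene length. MRPS36 was at 113, 132 and 113 in pika, against 35.1, 23.9 and 38.2 in mouse, and its mouse libraries were more spread than those of MRPS25 or MRPS26. The fold change, 1.87 on the log2 scale (SE 0.15, limma-trend adjusted p = 2.0e-06), was 0.64 without gene length. Mouse has separate rows for Mrps36 pseudogenes, so reads of MRPS36 and its copies may be split, and the value is uncertain.

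The MRPS genes called higher with the smallest fold changes were MRPS11, MRPS7, MRPS2, MRPS14 and MRPS30. MRPS7, which in bacteria binds the ribosomal RNA of the head, was at 168, 169 and 171 rescaled FPKM in pika, against 72.9, 76.9 and 74.8 in mouse. Both species were tight, with a log2 fold change of 1.17 (SE 0.04, limma-trend adjusted p = 6.8e-09). MRPS2, with a bacterial counterpart, was at 85.3, 82.6 and 87.7 in pika, against 31.9, 35.7 and 44.7 in mouse (log2 fold change 1.18, SE 0.11, limma-trend adjusted p = 4.9e-06). MRPS14, also with one, was at 80.8, 89.2 and 72.7 in pika, against 38.0, 31.6 and 35.7 in mouse. The libraries did not overlap (log2 fold change 1.18, SE 0.09, limma-trend adjusted p = 1.6e-06), but the value without gene length was -0.13. MRPS11, described above with its neighbour, had an SE of 0.10 and a limma-trend adjusted p of 3.1e-06. MRPS30, which carries a small subunit name but sits in the large subunit, was at 105, 93.4 and 109 in pika, against 39.3, 51.0 and 39.7 in mouse. All pika libraries were higher (log2 fold change 1.23, SE 0.11, limma-trend adjusted p = 2.7e-06), and the value was larger, 1.88, without gene length.

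The 3 relatives of the bacterial S18 protein differed among themselves. MRPS18A, placed in the large subunit, was at 78.8, 68.0 and 75.4 rescaled FPKM in pika, against 25.3, 19.6 and 19.8 in mouse, and was called higher (log2 fold change 1.74, and 1.75 without gene length). MRPS18B was at 80.8, 78.5 and 75.5 in pika, against 53.1, 43.0 and 41.3 in mouse, and the log2 fold change of 0.77 stayed inside the minimum. MRPS18C, which occupies the bacterial position in the small subunit, was at 27.8, 23.4 and 22.3 in pika, against 81.4, 70.0 and 87.4 in mouse. It was the only MRPS gene called lower by the main test, with a log2 fold change of -1.66 (SE 0.11, limma-trend adjusted p = 3.3e-07), which was -0.59 and not called without gene length. The summed reads of MRPS18C were 303 in pika and 231 in mouse.

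Large subunit genes were called higher in 18 of 47 cases (38.3%, all genes 28.7%) and lower in 8 (17.0%, all genes 23.5%), and their median log2 fold change was 0.73. Without gene length 8 (17.0%, all genes 25.7%) were higher and 7 (14.9%, all genes 27.2%) lower. MRPL13, the counterpart of a bacterial protein that binds early in assembly of the large subunit, was at 174, 153 and 169 rescaled FPKM in pika, against 19.7, 17.1 and 17.9 in mouse. Its log2 fold change of 3.11 (SE 0.08, limma-trend adjusted p = 5.1e-10) was the largest of the MRPL genes, and it was 1.94 without gene length. MRPL15, also with a bacterial counterpart, was at 93.6, 99.2 and 102 in pika, against 10.9, 13.3 and 11.3 in mouse. The species were far apart, with a log2 fold change of 2.95 (SE 0.09, limma-trend adjusted p = 1.9e-09), and of 1.58 without gene length. MRPL17 was at 179, 193 and 176 in pika, against 25.9, 22.1 and 24.6 in mouse. Its log2 fold change of 2.87 (SE 0.07, limma-trend adjusted p = 5.6e-10) became 0.13 without gene length, and its gene model was 14.2 times as long in mouse as in pika.

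MRPL57, a short protein found only in mitochondrial ribosomes, was the highest member in pika, at 227, 235 and 257 rescaled FPKM, against 35.3, 28.7 and 33.4 in mouse. It stood first of 76 in pika and 50th in mouse (log2 fold change 2.85, SE 0.08, limma-trend adjusted p = 1.3e-09), and its value without gene length was 0.98. MRPL33, with a bacterial counterpart, was at 117, 118 and 133 in pika, against 20.6, 25.9 and 25.2 in mouse. The log2 fold change was 2.31 (SE 0.10, limma-trend adjusted p = 1.3e-08), and 0.35 without gene length. MRPL35, also with a bacterial counterpart, was at 67.6, 67.6 and 82.1 in pika, against 17.9, 15.6 and 14.6 in mouse. It was called higher on FPKM (log2 fold change 2.11, SE 0.11, limma-trend adjusted p = 6.0e-08) and had the opposite sign, -0.21, without gene length. MRPL18, the third highest member in pika, was at 187, 187 and 179 there, against 84.7, 90.1 and 74.4 in mouse. The species did not overlap (log2 fold change 1.15, SE 0.07, limma-trend adjusted p = 1.8e-07), and the value was 1.39 without gene length.

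The other MRPL genes called higher were MRPL51, MRPL19, MRPL1, MRPL11, MRPL47, MRPL45, MRPL23, MRPL37, MRPL28, MRPL38 and MRPL22, with log2 fold changes from 2.03 for MRPL51 to 1.03 for MRPL22. MRPL1 and MRPL11 belong to the stalks at which tRNAs and translation factors come and go. MRPL1 was at 44.3, 47.6 and 46.7 rescaled FPKM in pika, against 11.5, 11.8 and 14.4 in mouse (log2 fold change 1.80). MRPL11 had a log2 fold change of 1.72 on FPKM and of -0.60 without gene length. MRPL45, which sits at the exit of the peptide tunnel and anchors the ribosome to the inner membrane, was at 146, 132 and 141 in pika, against 44.2, 49.1 and 49.9 in mouse. It was called higher with and without gene length, at 1.53 and 1.35. MRPL22 fell under the fold minimum, at 0.97 to 0.99, when pika replicate 2, mouse replicate 1 or mouse replicate 2 was left out. MRPL23, with mouse pseudogene rows of its own, had 157 summed reads in pika and 144 in mouse, and its fold change of 1.40 turned to -0.82 without gene length.

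The 8 MRPL genes called lower in pika were MRPL30, MRPL34, MRPL24, MRPL53, MRPL39, MRPL50, MRPL42 and MRPL43. MRPL30 (mouse chromosome 1, 37890477 to 37898338, GRCm38.p6), with a bacterial counterpart, was listed at 0 in all 3 pika libraries, against 42.8, 44 and 41.9 rescaled FPKM in mouse. The mouse values rested on 184 reads. Whether this 0 is absence or a failed estimate cannot be told from the files, so no fold is given. MRPL34, the counterpart of a very small bacterial protein, was at 29.1, 23.9 and 22.8 in pika, against 103, 100.2 and 120.4 in mouse. Its summed reads in pika, at least 70, were the lowest minimum of any member above 0 there. The log2 fold change was -2.05 both with gene length (SE 0.11, limma-trend adjusted p = 6.4e-08) and without. MRPL24, whose bacterial counterpart starts assembly of the large subunit, was at 28.9, 32.0 and 35.3 in pika, against 89.7, 100.2 and 87.4 in mouse. The species did not come near each other, with a log2 fold change of -1.50 (SE 0.09, limma-trend adjusted p = 1.5e-07), and of -1.67 without gene length.

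The other 5 lower MRPL genes encode proteins without a bacterial counterpart. MRPL53 was at 45.7, 43.8 and 35.4 rescaled FPKM in pika, against 109, 115 and 115 in mouse (log2 fold change -1.43, SE 0.09, limma-trend adjusted p = 3.2e-07). MRPL39, a protein related to threonyl-tRNA synthetases, was at 23.2, 19.7 and 16.1 in pika, against 54.1, 45.2 and 54.6 in mouse. It was the lowest pika member above 0, with a log2 fold change of -1.35 (SE 0.13, limma-trend adjusted p = 7.9e-06). MRPL50 was at 21.8, 22.5 and 21.0 in pika, against 51.6, 56.8 and 56.6 in mouse. Its log2 fold change was -1.30 (SE 0.08, limma-trend adjusted p = 1.6e-07), and -2.22 without gene length. MRPL42, the second highest member in mouse, was at 57.5, 57.9 and 69.2 in pika, against 123, 146 and 165 in mouse. The log2 fold change of -1.21 (SE 0.11, limma-trend adjusted p = 3.7e-06) was -0.08 without gene length and 0.07, of the other sign, without rescaling. MRPL43 was at 40.5, 47.6 and 43.9 in pika, against 101, 99.1 and 84.0 in mouse. The log2 fold change of -1.09 (SE 0.09, limma-trend adjusted p = 1.7e-06) turned to 0.18 without rescaling, where the median of all genes was 1.29. Of the 9 lower members, 5 were also called lower without gene length, namely MRPL24, MRPL34, MRPL43, MRPL50 and, by its listing at 0, MRPL30.

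The 31 members that were not called included central parts of the machine. MRPS6, which in bacteria neighbours S18, was the highest member in mouse, at 144, 149 and 148 rescaled FPKM in pika, against 211, 197 and 187 in mouse. Its libraries did not overlap (log2 fold change -0.42, SE 0.05, limma-trend adjusted p = 2.6e-05), yet the difference stayed inside the fold minimum and turned to 0.85 without rescaling. MRPS21, the third highest in mouse, was at 138, 134 and 135 in pika, against 125, 141 and 157 in mouse, and the species overlapped (log2 fold change -0.05, SE 0.08, limma-trend adjusted p = 0.53). MRPL12, the stalk protein that contacts translation factors, was at 76.8, 81.3 and 73.1 in pika, against 79.1, 94.5 and 65.8 in mouse, and its species overlapped too. MRPL2, beside the site of peptide bond formation, was at 61.2, 71.7 and 60.1 in pika, against 67.7, 84.1 and 103 in mouse (log2 fold change -0.38). MRPS12, at the decoding site, was at 93.5, 106 and 89.8 in pika, against 67.2, 55.7 and 85.2 in mouse. Its log2 fold change of 0.49 became 2.26 without gene length, on at least 39 summed reads in mouse. The mouse length worked out for MRPS12, 208 bases, was the shortest of any member. Its reads and length may both be too low by a shared factor, so the 2.26 is uncertain. MRPL40, at 69.1, 74.5 and 61.8 in pika, against 22.3, 52.5 and 51.1 in mouse, had the widest relative spread between mouse libraries of all members.

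The difference in gene model length between the annotations went along with the fold changes. Lengths worked out from the steps of the FPKM values are minimums, since a shared whole factor can be lost, and so are the reads. Fold changes without gene length carry the same limit. Among the 75 members above 0 in both species the median length was 726 bases in pika and 1722 in mouse, and the median ratio of mouse to pika length was 2.36, that of all genes tested being 2.25. The ratio ran from 0.484 for MRPL32 to 17.1 for MRPS9. Across the 75 members, which share the same libraries, Spearman's rho of log2 fold change and length ratio was 0.67 and Pearson's r on the log scale 0.65, and rho was -0.31 for fold changes without gene length. Over 9946 genes tested the same rho was 0.20. A description across genes is given here with no p, since both measures contain the length.

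**Figure D2:**
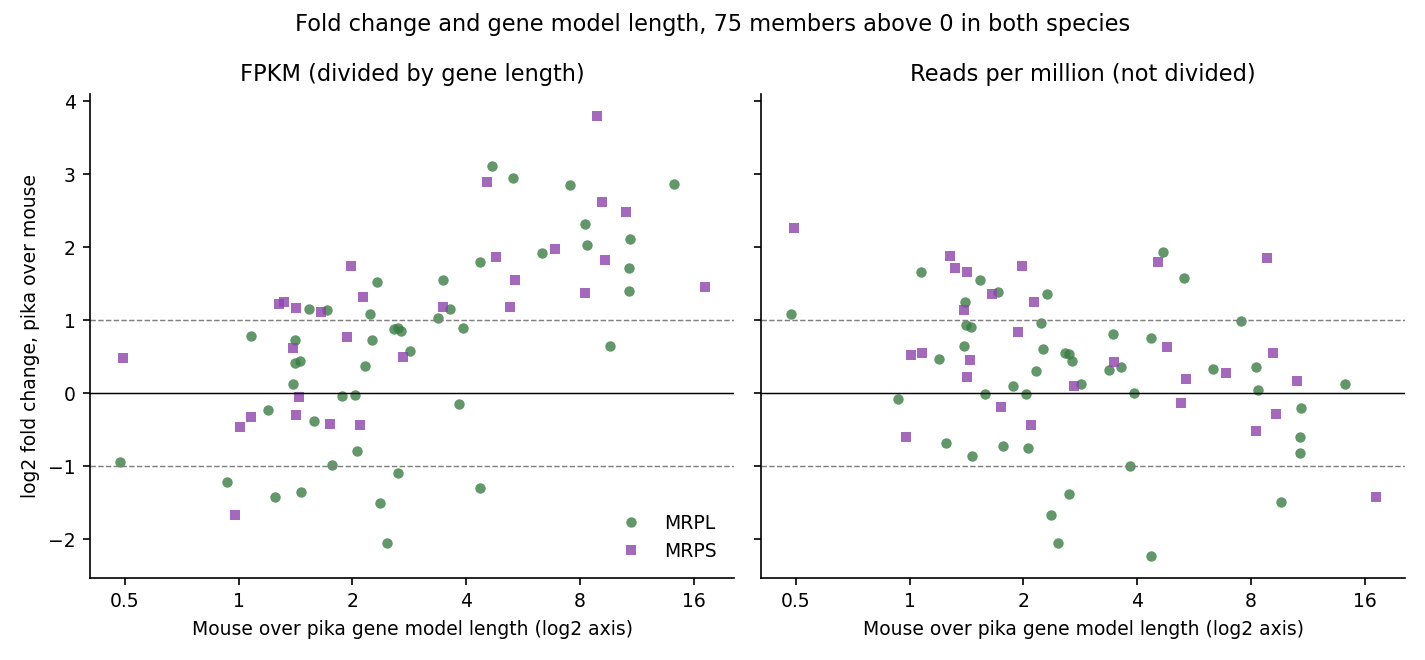
log2 fold change of 75 members (pika over mouse) against the ratio of mouse to pika gene model length on a log2 axis. Values are on FPKM at left. At right they are on reads scaled to the summed reads of the joined genes but not divided by length. Circles are MRPL and squares MRPS genes, and dashed lines mark the fold minimum of 1 in each direction. On FPKM the points climb with the ratio (rho 0.67), and on scaled reads they do not (rho -0.31).

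Of the 16 members whose mouse model was at least 6 times as long, 15 were called higher and none lower, where 45.5% of all genes in that range were called higher and 15.6% lower. Of the 14 with a ratio of 3 to 6, 11 were higher and 1 lower (all genes 35.4% and 16.7%). In the 25 members with a ratio of 1.5 to 3, 7 were higher and 3 lower (all genes 26.6% and 22.2%). In the 20 members with a ratio under 1.5, 3 were higher and 4 lower (all genes 18.5% and 28.5%). These included MRPL32 (0.484) and MRPS12 (0.495), whose models were longer in pika. The median log2 fold change was 0.04, and -0.16 for all genes in that range. Without gene length the same 20 members had 8 higher and none lower, where 1075 of the 2557 genes in that range were higher and 379 lower. The medians were then 0.78 for the members and 0.73 for all genes of the range. On FPKM the 3 higher members of that range were all MRPS genes, and of its 4 lower members 3 were MRPL genes. Without gene length, 13 of the 36 higher members were still called higher and MRPS9 was called lower, at -1.42, against 1.46 on FPKM.

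**Figure D3:**
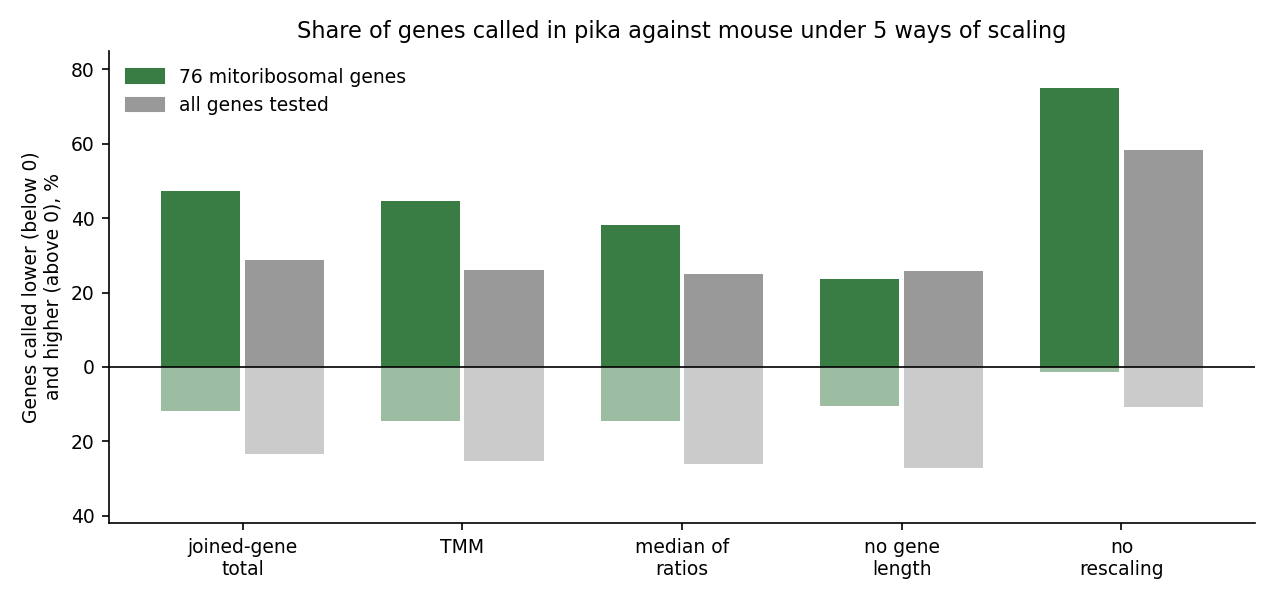
Share of genes called higher (upward bars) and lower (downward bars) in pika against mouse, in percent, under 5 ways of scaling, for the 76 members and for all genes tested. The members' bar for higher genes stands above that of all genes on the joined-gene total (47.4% against 28.7%) and below it without gene length (23.7% against 25.7%).

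On trimmed-mean (TMM) scaling 34 members were called higher and 11 lower (all genes 26.2% and 25.2%), and on median-of-ratios scaling 29 and 11 (all genes 25.0% and 26.2%). These scalings put the median of all genes at 0.10 and 0.04. Called higher under the joined-gene total, both of these scalings, no rescaling and no gene length were 9 members: MRPL13, MRPL15, MRPL45, MRPS5, MRPS15, MRPS18A, MRPS30, MRPS31 and MRPS35. The share of all genes called higher under every one of these settings was not worked out, so this count is not read as a result about the members. MRPS35 is counted here although it passed the filter only through pika, and the other 8 had a mean of at least 1 FPKM in both species. MRPS15 was at 160.4, 179.6 and 166 rescaled FPKM in pika, against 56.7, 81.2 and 65.4 in mouse. MRPS31 rested on at least 309 summed reads in pika and 38 in mouse, the lowest minimum of any member in mouse. Its log2 fold change without gene length, 1.72, is uncertain, since a shared factor of reads and length may be lost.

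Summed over genes, both subunits were higher in pika and the balance between them leaned less to the large subunit. The 47 MRPL genes summed to 3811, 3862 and 3838 rescaled FPKM in the pika libraries, against 2566, 2607 and 2602 in the mouse libraries. The 29 MRPS genes summed to 2569, 2623 and 2525 in pika, against 1482, 1457 and 1438 in mouse. Together the members made up 0.641% ± 0.00657 of the joined total in pika and 0.405% ± 0.00117 in mouse (SD, n = 3 each). The ratio of large to small subunit sums was 1.48, 1.47 and 1.52 in pika, against 1.73, 1.79 and 1.81 in mouse, with no overlap between the species. It was 1.76 ± 0.0401 in pika and 1.95 ± 0.0431 in mouse (SD, n = 3 each) when MRPS30 and MRPS18A were counted with the large subunit and MRPS36 was left apart. From scaled reads with no gene length the ratio by name was 1.53 ± 0.00778 in pika and 1.94 ± 0.0472 in mouse. No test is given on these sums.

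**Figure D4:**
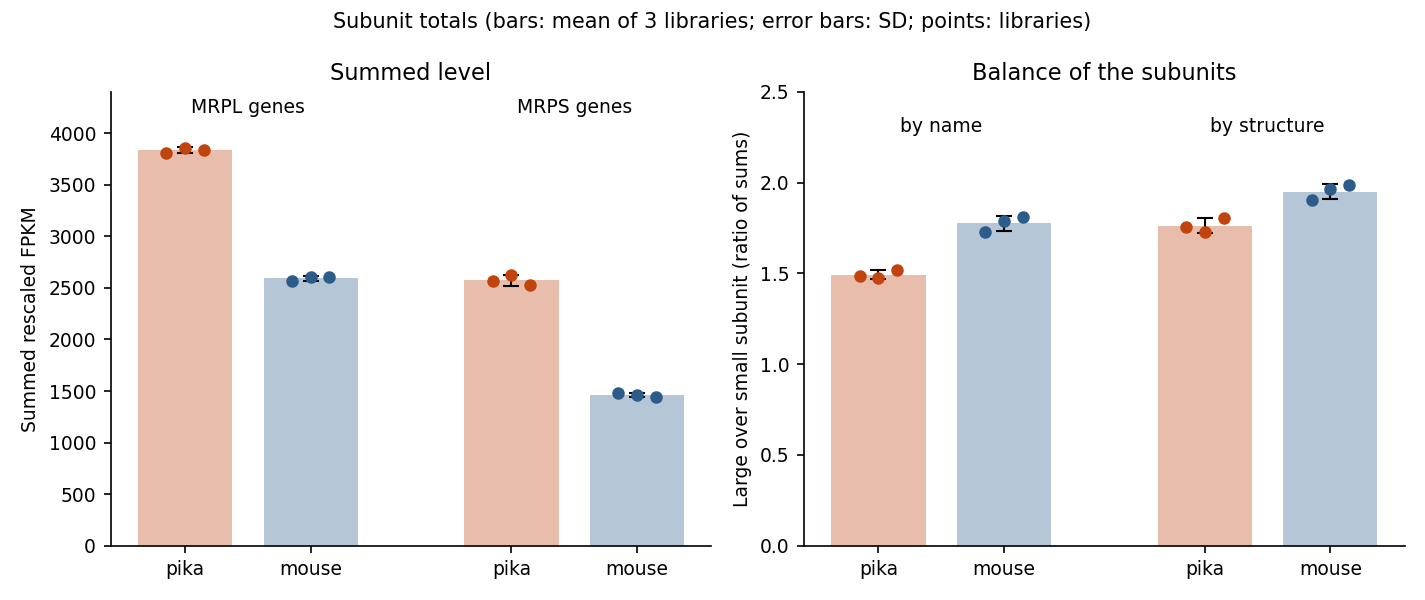
Summed rescaled FPKM of the MRPL and of the MRPS genes (left) and the ratio of large to small subunit sums, with members assigned by name or by structure (right), in pika and mouse. Bars are means of 3 libraries, error bars SD and points libraries. The ratio by name averages 1.49 in pika and 1.78 in mouse.

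The middle of each subunit gave the same direction. The median MRPS gene was at 81.0 ± 1.95 rescaled FPKM in pika and 37.3 ± 1.41 in mouse (SD, n = 3 each), and the median MRPL gene at 69.4 ± 3.07 in pika and 48.2 ± 2.63 in mouse. The small subunit median thus lay above the large one in pika and below it in mouse on FPKM. Subunit medians of scaled reads, without gene length, were not worked out. On mean level the 75 members above 0 spanned 12.2-fold in pika, from MRPL39 at 19.6 to MRPL57 at 239.6, and 39.9-fold in mouse, from MRPS35 at 4.97 to MRPS6 at 198. Coefficients of variation between libraries had a median of 6.79% in pika and 10.4% in mouse, small beside these ranges.

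The order of the members was hardly shared between the species. Spearman's rho of the mean rescaled FPKM in pika and in mouse was 0.05 across the 76 members, which share their libraries, -0.12 across the 47 MRPL and 0.38 across the 29 MRPS genes. On scaled reads, without gene length, rho was 0.39 across the 76. Mouse levels went with mouse gene model length (rho -0.73 over 76 members), and pika levels far less with pika length (rho -0.13 over 75). At the top, MRPL57, MRPS25 and MRPL18 led in pika and stood 50th, 49th and 14th in mouse. MRPS6, MRPL42 and MRPS21 led in mouse and stood 11th, 52nd and 13th in pika.

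On FPKM, both subunits had genes called higher among members with and without a bacterial counterpart. Of all genes, 28.7% were called higher and 23.5% lower. With MRPS30 and MRPS18A counted in the large subunit, 13 of its 29 genes with a bacterial counterpart were called higher and 3 lower (median log2 fold change 0.88). Of its 20 genes without one, 7 were higher and 5 lower (median 0.55). In the small subunit 9 of 16 genes with a counterpart were higher and 1 lower (median 1.14), and 6 of 10 without one were higher and none lower (median 1.32). Without gene length 25.7% of all genes were called higher and 27.2% lower (median 0.04). The large subunit then had 6 of 29 genes with a counterpart higher (20.7%) and 4 lower (median 0.34). Of its 20 genes without one, 4 (20%) were higher and 3 lower (median 0.20). Both shares of higher calls lay below that of all genes. The small subunit then had 5 of 16 with a counterpart higher and 1 lower (median 0.49), and 3 of 10 without one higher and none lower (median 0.25), so the order of its 2 medians turned. No test of the difference between these classes was made.

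Mitoribosomal proteins that carry other symbols differed in both directions. PTCD3, a small subunit protein with pentatricopeptide repeats that bind RNA, was at 93.8, 91.2 and 99.1 rescaled FPKM in pika, against 29.4, 30.5 and 27.3 in mouse, and was called higher (log2 fold change 1.67, and 1.23 without gene length). GADD45GIP1, in the large subunit, was called higher at 2.39, and 0.54 without gene length. CHCHD1, in the small subunit, was at 18.9, 17.0 and 21.3 in pika, against 121, 121 and 113 in mouse, and was called lower (-2.57, and -0.58 without gene length). DAP3 (0.44) and AURKAIP1 (0.67), both of the small subunit, were not called, and both changed sign without gene length (-0.54 and -0.13).

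Among genes that assemble the mitochondrial ribosome or handle its RNA, 12 of 26 tested (46.2%, all genes 28.7%) were called higher. Called lower were 3 (11.5%, all genes 23.5%), and the median log2 fold change was 0.86. Without gene length 10 (38.5%, all genes 25.7%) were higher and 4 (15.4%, all genes 27.2%) lower. SLIRP and LRPPRC, partners that stabilise mitochondrial mRNAs, had log2 fold changes of 2.93 and 2.41. The GTPase MTG1, which acts late in large subunit assembly, had 2.45, and METTL17, an assembly factor of the small subunit, 2.40. Without gene length these 4 values ran from 1.02 for SLIRP to 2.48 for LRPPRC. Of 12 translation factors, 2 were higher and 2 lower (16.7% each, median 0.11), both shares below those of all genes. Without gene length 2 (16.7%) were higher and 4 (33.3%) lower. MTRF1L, a release factor, had a log2 fold change of 1.66, and TSFM, which recharges the elongation factor TUFM, 1.27. Without gene length these were 1.42 and 0.83. PDF, the deformylase that trims new mitochondrial peptides, had -2.23 with and without gene length. The initiation factor MTIF3 had -1.13, which was -2.53 without gene length and turned to 0.06 without rescaling.

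Of 14 tested genes for mitochondrial transcription and biogenesis, 5 (35.7%, all genes 28.7%) were higher and none lower (all genes 23.5%), with a median log2 fold change of 0.74. Without gene length 8 (57.1%, all genes 25.7%) were higher and 1 (7.14%, all genes 27.2%) lower. The coactivator PPARGC1B was at 28.0, 27.5 and 24.6 rescaled FPKM in pika, against 0.934, 1.45 and 0.832 in mouse (log2 fold change 3.75). SSBP1, which coats single-stranded mitochondrial DNA, had 3.43, and the packaging and transcription factor TFAM 2.29. Without gene length PPARGC1B had 3.44, SSBP1 1.20 and TFAM 1.29. The polymerase subunit POLG2 was also called higher. PPARGC1B and POLG2 had means under 1 FPKM in mouse and passed the filter on low values only through pika. Of the factors named above with the promoter motifs, NRF1 (0.64), GABPA (-0.90) and YY1 (0.54 on the log2 scale) were not called. GABPB1, from the same list, was called higher (log2 fold change 1.26, and 1.34 without gene length). The sign of NRF1 turned without gene length (-0.73), and that of GABPA without rescaling (0.36).

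On FPKM, cytosolic ribosomal protein genes gave a share of higher calls (39.2%) between those of the members (47.4%) and of all genes (28.7%). Of 74, 29 were higher and 7 lower (median log2 fold change 0.79). Among nuclear genes of complex I, whose core also holds subunits made on these ribosomes, 13 of 45 were higher and 3 lower (median 0.49). Without gene length the order differed. The cytosolic ribosomal protein genes had 11 higher (14.9%) and 7 lower, below the share of higher calls of the members (23.7%) and of all genes (25.7%). The complex I genes had 15 higher (33.3%), above both, and 7 lower.

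Genes of cell division also moved with the species. Of 18 tested proliferation genes, 17 (94.4%, all genes 28.7%) were called higher in pika and none lower (all genes 23.5%). Their median log2 fold change was 2.96, and 3.01 without gene length. TOP2A, which untangles DNA in dividing cells, was at 591, 594 and 620 rescaled FPKM in pika, against 56.1, 58.2 and 59.3 in mouse. RRM2 was the one not called, at -0.34. Markers of other cell types differed in both directions. The 7 endothelial markers summed to 0.707 to 1.60 in pika, with 3 at 0, against 33.3 to 39.3 in mouse. TEK alone averaged 31.4 in mouse, and no other endothelial marker passed the filter on low values. The 6 macrophage and leukocyte markers summed to 14.5 to 15.2 in pika, with 2 at 0, against 34.8 to 43.7 in mouse. CD14 went against this sum, with means of 10.8 in pika and 8.02 in mouse, and was not called. The 5 melanocyte markers went the other way, with sums of 68.1 to 78.5 in pika, against 54.8 to 58.3 in mouse, where 2 were at 0. PMEL averaged 31.6 in pika and 4.97 in mouse and was called higher (log2 fold change 2.52), though it passed the filter only through pika. Of the 7 keratinocyte markers 5 were at 0 in pika, KRT5 and KRT14 among them, and 1 in mouse. The part of these differences in the levels of the mitochondrial ribosomal protein genes was not tested.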

How the data were processed

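RNA-seq of 3 pika and 3 mouse fibroblast libraries was analysed from tables in which the authors deposited 1 FPKM value per gene. CASAVA 1.9, STAR 2.6.1a, featureCounts and edgeR 3.28.1 are listed, per the submitters' processing notes, with GRCm38 as the only build, and the sources used here do not name the pika annotation. FPKM divides by the length of the gene model, so shorter models give higher values from the same reads. Pika rows carry symbols, and mouse identifiers were named from a gene table. The table has no symbols for rat or rabbit identifiers, and the libraries of these species were not used here, nor was the ChIP-seq part. Each library was rescaled so that joined genes sum to 1000000, genes with a mean of at least 1 FPKM in either species were kept, and limma-trend (limma 3.58.1, R 4.3.3) was run on log2(value + 1), which understates the change of low genes. Whole reads, lengths and totals were worked out from the FPKM steps with a tolerance of 0.002 reads. The smallest length that fitted was taken, so reads and lengths are minimums. The recovered reads made up 95.7% to 96.3% of the totals and served the fit without gene length and the description of depth. In that fit reads were scaled so that those of the joined genes sum to 1000000 in each library, not to the library total. Replicates differed by more than sampling noise (mean chi-square per gene 1.33 to 1.50 in pika and 1.43 to 2.74 in mouse), so no pair was taken as 2 copies of 1 library. This does not show that the libraries came from separate cultures. Tested on simulated data for pika against mouse (9721 genes), the fit called 100 of 100 genes made 4-fold different, 100 of 100 made 3-fold different and 3 of 9521 left alike. The simulation held no difference in annotation and drew both groups from the mouse reads, lengths and totals with a fixed spread. Only genes at or above the median mouse read count were changed. It thus does not show how often changes of low genes are found. Alternatives were other scalings, pseudocounts, filters, limma without the trend, no gene length, the replicate block and leaving out each library.

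All members may be named. Values are given in full for the 6 called members with the highest and the 6 with the lowest signed fold change in each subunit among those above 0 in every library, those called lower and the 3 highest in each species. Up to 4 called genes are named from each other list, and GABPB1 was added to those of its list. The members, lists and structural classes were chosen with earlier results of these data known, and the motifs, promoters and further members described were chosen after their values were seen. Other tools were scipy 1.17.1, pandas 2.3.3, numpy 2.4.6 and Python 3.11.15.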

Additional observations from a re-analysis of the deposited data

Results flagged for a closer look

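Mouse had 2 mitochondrial ribosomal protein genes with reads in every library and no pika row of that symbol, and they enter no comparison. Mrpl36, the counterpart of a small bacterial large subunit protein, was at 18.9, 17.0 and 14.8 deposited FPKM in the mouse libraries, with a mean of 16.9. Mrpl58, a peptidyl-tRNA hydrolase built into the large subunit, was at 3.65, 4.59 and 4.37 FPKM, with a mean of 4.20. Both stood above the level of 3 reads in each mouse library. Groups of 3 libraries are too small for a test of single outlying libraries.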

How the results depend on the processing

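Pseudocounts of 0.1 and 0.5, no filter or a stricter filter on low values, limma without the trend and the replicate block left the call and direction of all 76 members as they were. The stricter filter of 5 FPKM tested fewer genes and put the count of all lower genes at 1584. With the replicate number as a block, 36 members were higher and 9 lower, and 2972 of all genes were higher and 2433 lower. Same-numbered libraries did not deviate together (correlations of deviations -0.009, 0.048 and 0.009), so the numbers were not taken as pairs. Leaving out 1 library at a time gave 35 to 36 higher and 9 to 10 lower members, 2940 to 2984 higher and 2416 to 2448 lower of all genes, and medians of 0.68 to 0.79 for MRPL and 1.16 to 1.20 for MRPS genes. MRPL22 lost its call without pika replicate 2, mouse replicate 1 or mouse replicate 2 (0.97 to 0.99), MRPL54 passed the minimum without pika replicate 3 or mouse replicate 3 (-1.02 and -1.03), and MRPL55 without mouse replicate 2 (1.13). Near 0, the sign turned within ranges of -0.165 to 0.093 for MRPL12, -0.144 to 0.064 for MRPL41 and -0.136 to 0.030 for MRPS21. The median of MRPL genes was 0.55 on median-of-ratios and 0.62 on TMM scaling, 1.95 without rescaling and 0.32 without gene length. The median of MRPS genes was 1.01 on median-of-ratios scaling, 2.33 without rescaling and 0.52 without gene length. Median-of-ratios scaling turned MRPL14 to -0.053. Without rescaling 57 members were higher and 1 lower, 6029 and 1106 of all genes were, and by construction the whole distribution shifted. This turned 16 members to positive values, MRPL12 (1.21), MRPL2 (0.87), MRPL20 (1.09), MRPL32 (0.32), MRPL41 (1.21), MRPL42 (0.067), MRPL43 (0.18), MRPL44 (0.93), MRPL52 (0.48), MRPL54 (0.30), MRPS16 (0.83), MRPS21 (1.21), MRPS24 (0.78), MRPS27 (0.90), MRPS28 (0.89) and MRPS6 (0.85). Without gene length 18 members were higher, and 15 changed sign: MRPL11 (-0.60), MRPL12 (0.095), MRPL23 (-0.82), MRPL32 (1.09), MRPL35 (-0.21), MRPL44 (0.47), MRPL48 (-1.49), MRPS14 (-0.13), MRPS17 (-0.28), MRPS21 (0.45), MRPS22 (-0.51), MRPS24 (0.52), MRPS27 (0.23), MRPS28 (0.55) and MRPS9 (-1.42). Reads are minimums, so a value without gene length, its sign included, is uncertain where a shared factor was lost. Depth also limits the values: the median member had 189 to 207 reads per pika library and 60 to 98 per mouse library.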

Other observations

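The mRNAs that mitochondrial ribosomes translate were not joined to pika rows by symbol and are given here for mouse alone. In mouse their deposited FPKM spanned a wide range, with mt-Co1, a cytochrome c oxidase subunit, at 2595, 2640 and 2555 and mt-Nd3, a complex I subunit, at 25.4, 37.7 and 32.1. The mouse pseudogene rows named after members were near 0, with the highest mean, 1.71 FPKM, for Mrps36-ps2. The rows Mrps36-ps1, Mrpl23-ps1 and Mrpl48-ps had means of 0.527, 0.898 and 0.962 FPKM.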
